A study of Rattus norvegicus with 8 samples.

Results

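The nuclear-encoded genes of the last steps of mitochondrial respiration were followed in whole kidneys of rats born with a solitary kidney. They comprise the succinate dehydrogenase subunits (complex II), the subunits of the cytochrome bc complex (III), cytochrome c itself, the subunits of cytochrome c oxidase (IV) and those of ATP synthase (V). Members were taken by symbol: Sdha to Sdhd, Cyc1, Cycs and every symbol that begins with Uqcr, Cox4, Cox5, Cox6, Cox7, Cox8 or Atp5. This gave 62 probe sets with exactly 1 symbol and 51 genes, of 17245 genes measured in all, with the brightest probe set standing for a gene. Complex II had 4 genes, complex III had 9, complex IV had 17 and complex V had 20, with cytochrome c as 1 gene. The filter on dim genes left out 2 of the 51, the testis form Cox8c and the Atp5mg copy Atp5mgl3, so that 49 of 13796 tested genes are members.

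HSRA-S rats (solitary kidney from birth) and HSRA-C rats (kidney pair, the control) belong to the same HSRA model of unilateral renal agenesis, derived from a heterogeneous stock. Each group held 4 independent samples taken at 4 weeks of age, each on its own Rat Gene 1.1 ST array. No genotype, drug or diet separates the groups in the labels, and they state neither sex nor litter. As a check of the tissue, the mean over 15 proximal tubule markers ran log2 10.59 to 10.80 over the HSRA-S arrays, against 10.45 to 10.67 over the HSRA-C arrays. The comparison asks how the transcripts of a kidney that developed alone differ from those of a kidney of a 2-kidney animal. In whole tissue, fewer cells of a type and less RNA per cell cannot be told apart.

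Electrons from succinate enter the chain through complex II, pass as ubiquinol to complex III, travel on cytochrome c to complex IV and reduce oxygen there, and the proton gradient made on the way drives ATP synthase. Complexes III, IV and V are built from nuclear and mitochondrial genes, whereas all subunits of complex II are nuclear. The proximal tubule and the thick ascending limb are rich in mitochondria because salt and solute transport consumes much ATP, while the inner medulla has few and relies more on glycolysis. None of the 13 genes of the mitochondrial genome looked for was matched to a probe set with 1 symbol (0 of 13), so mitochondrially encoded subunits were not analysed here.

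Most members had a slightly higher mean in the solitary kidney, and none passed the test. Of the 49 tested members, 42 had a higher mean in HSRA-S and 7 a lower one, while 55.5% of all tested genes had a higher mean in HSRA-S. The median log2 difference (HSRA-S minus HSRA-C) was 0.087 over the members, a 1.06-fold level, and 0.015 over all tested genes. Member differences ran from -0.45 for Cox4i2 to 0.25 for Sdhb. With limma and Benjamini-Hochberg adjustment over all 13796 genes, 0 members were past an adjusted p of 0.05, as was the case for 0 genes in all (0% of those tested), and the adjusted p of members lay between 0.331 and 0.991. At an unadjusted p under 0.05, 8 of 49 members (16.3%) were higher and 0 lower, against 7.36% and 4.69% of all tested genes. The groups did not overlap, with HSRA-S above, in 10 members (20.4%), against 4.12% of all tested genes. HSRA-S lay below HSRA-C without overlap in 0 members and in 2.17% of all tested genes.

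Members are mostly bright on the array, so genes of similar brightness are the closer background. Of 4651 tested genes with a mean log2 level of at least 7, 9.61% were higher at an unadjusted p under 0.05, 5.91% lay above without overlap and the median difference was 0.024. Among the 42 members at or above that level, the median was 0.10, 39 were higher and all 10 non-overlapping genes were found. The 7 remaining members, at log2 means up to 5.43, had a median difference of -0.059, with 3 higher and 4 lower. This split of the members was made after the values were seen.

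**Figure D1:**
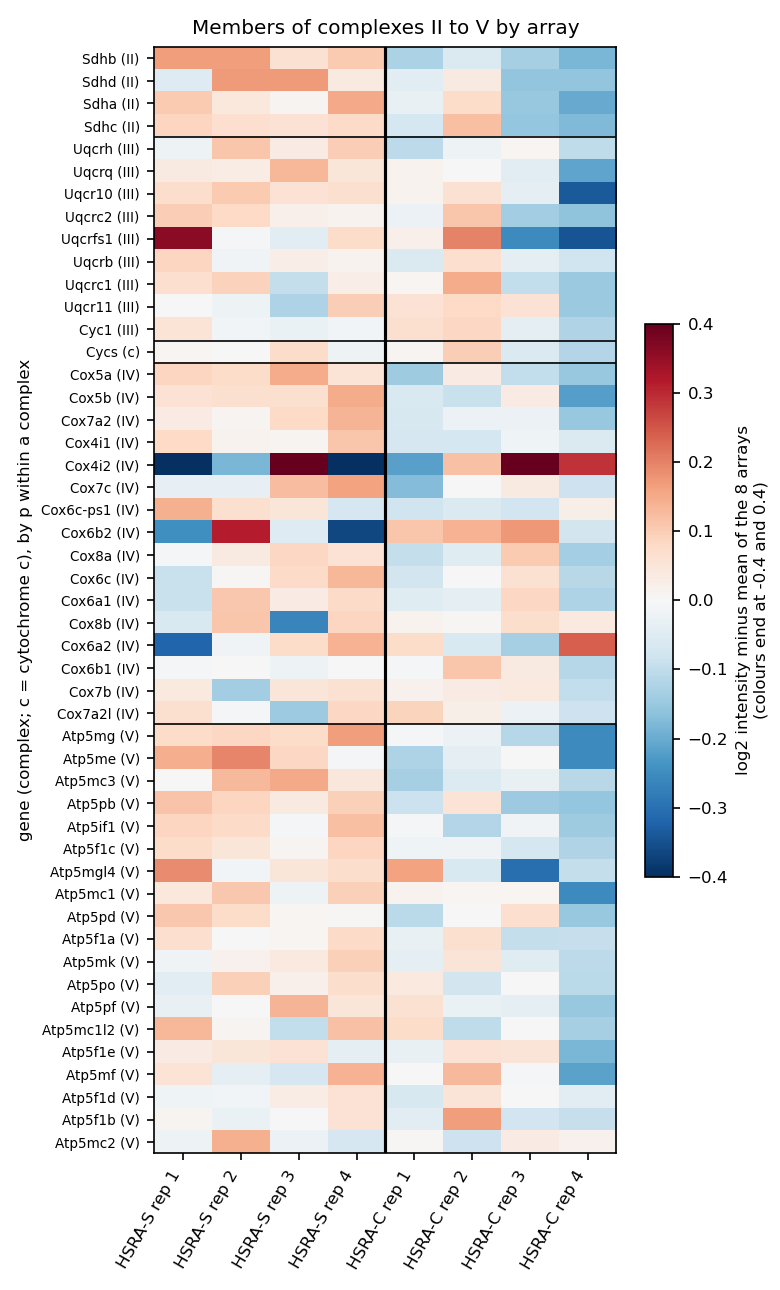
Log2 intensity of each tested member (rows, grouped by complex) on each array (columns, HSRA-S left of the line and HSRA-C right), minus the gene's mean over the 8 arrays. Colours end at -0.4 and 0.4. HSRA-C replicate 4 was the lowest of the 8 arrays for 34 of 49 members.

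Over the bright members the control arrays were less even than the solitary ones, which was not so over all genes. The mean log2 level over the 42 bright members was 9.95, 9.95, 9.94 and 9.97 in HSRA-S, against 9.87, 9.93, 9.87 and 9.76 in HSRA-C. The SD between arrays was 0.014 for HSRA-S, against 0.073 for HSRA-C, and all 4 HSRA-S values lay above all 4 HSRA-C values. The mean over all tested genes had an SD of 0.030 for HSRA-S, against 0.011 for HSRA-C, and over those at log2 7 or more of 0.024 for HSRA-S, against 0.018 for HSRA-C. HSRA-C replicate 2 came closest to the HSRA-S arrays and HSRA-C replicate 4 lay farthest from them. HSRA-C replicate 4 had the lowest level of the 8 arrays in 34 of 49 members (69.4%), where HSRA-S replicate 4 was the lowest in 2.04%. Over all tested genes HSRA-S replicate 4 was the lowest in 18.7% and HSRA-C replicate 4 in 17.6%. Over genes at log2 7 or more the shares were 20.8% for HSRA-S replicate 4 and 21.4% for HSRA-C replicate 4. The median log2 intensity of all probe sets ran from 4.94 to 5.01 across the arrays, and with every array centred on its own median the member median was 0.093.

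HSRA-C replicates 3 and 4 also stood apart in markers of the medulla. The urea transporter Slc14a2, expressed deep in the medulla, measured log2 6.85, 7.04, 7.22 and 4.44 in HSRA-S, against 5.99, 6.44, 8.86 and 8.997 in HSRA-C. The water channel Aqp4 of collecting duct cells measured 6.25, 6.55, 6.78 and 5.22 in HSRA-S, against 5.45, 6.79, 7.31 and 7.57 in HSRA-C. Both genes were highest in HSRA-C replicates 3 and 4, and both were lowest in HSRA-S replicate 4. The mean over the inner medulla list (7 of 8 genes tested) ran 6.19 to 7.25 over the HSRA-S arrays, against 6.59 to 8.09 over the HSRA-C arrays. The collecting duct list (11 of 12) ran 7.90 to 8.33 over the HSRA-S arrays, against 8.15 to 8.56 over the HSRA-C arrays. All 7 inner medulla genes and 10 of the 11 collecting duct genes had a lower mean in HSRA-S (median differences -0.46 and -0.13). Of these lists, 0 inner medulla and 3 collecting duct genes were lower at an unadjusted p under 0.05, against 4.69% of all tested genes. Of the proximal tubule list, 11 of 15 tested genes were higher (median 0.16). At an unadjusted p under 0.05, 3 (20%) were higher and 2 lower, against 7.36% and 4.69% of all tested genes. Without HSRA-C replicates 3 and 4 the medians were 0.084, -0.0965 and 0.032 in that order. Proximal tubule minus collecting duct markers was 2.10, 2.26, 2.24 and 2.63 in HSRA-S, against 2.20, 2.16, 1.87 and 1.78 in HSRA-C, so HSRA-C replicates 3 and 4 were the lowest of the 8. Aqp4, which the inner medulla list also holds, was left out of this difference. The part of these regional differences in the member values was not tested beyond the settings given next.

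Markers of other cell types were examined too, and none was past the adjusted threshold. The thick limb and distal list, which covers the other segment rich in mitochondria, had 4 of 9 tested genes higher and 5 lower (median -0.054). Its mean ran 9.91 to 10.14 over the HSRA-S arrays, against 9.95 to 10.06 over the HSRA-C arrays. At an unadjusted p under 0.05, 3 of its genes (33.3%) were higher and 0 lower, against 7.36% and 4.69% of all tested genes. Without HSRA-C replicates 3 and 4 there were 0, against 4.85% of all tested genes in either direction. The 2 of smallest p were Calb1 at 0.44 and Trpm6 at 0.34, both with overlapping groups. Of the adipocyte list, 7 of 9 tested genes (10 listed) were higher in HSRA-S and 2 lower, with differences from -0.29 to 0.56. In this list 2 genes (22.2%) were higher at an unadjusted p under 0.05 and 0 lower, against 7.36% and 4.69% of all tested genes. The listed Elovl3 was left out by the filter on dim genes. The mean of the list ran 4.70 to 4.82 over the HSRA-S arrays, against 4.51 to 4.78 over the HSRA-C arrays. Its brown fat genes, from a mitochondria-rich tissue, included Cidea, which averaged 6.47 ± 0.173 across the HSRA-S arrays, against 5.91 ± 0.094 across the HSRA-C arrays (SD, n = 4 each), without overlap. The uncoupling protein Ucp1 was at 3.96, 4.59, 4.45 and 4.43 in HSRA-S, against 4.04, 3.503, 3.83 and 4.36 in HSRA-C, with overlap. Of the leukocyte list 9 of 10 tested genes were higher (mean 5.06 to 5.45 over the HSRA-S arrays, against 4.90 to 5.21 over the HSRA-C arrays). In it 3 genes (30%) were higher at an unadjusted p under 0.05 and 0 lower, against 7.36% and 4.69% of all tested genes. Its median was 0.30 with all 8 arrays and 0.18 without HSRA-C replicates 3 and 4, where 9 of 10 were again higher. There 2 were at that threshold, against 4.85% of all tested genes. Endothelial markers were lower in 6 of 6 (mean 8.27 to 8.36 over the HSRA-S arrays, against 8.32 to 8.57 over the HSRA-C arrays) and glomerulus markers in 6 of 6 (mean 7.20 to 7.48 over the HSRA-S arrays, against 7.38 to 7.50 over the HSRA-C arrays). At an unadjusted p under 0.05, 2 endothelial genes and 1 glomerulus gene were lower, against 4.69% of all tested genes. Medians were -0.15 and -0.12, and -0.040 and -0.10 without HSRA-C replicates 3 and 4. The part of these cell types in the member values was not tested.

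The member values are therefore given with and without those control arrays. Without HSRA-C replicates 3 and 4, the member median was 0.046 and 35 of 49 members were higher, against a median of 0.013 and 55.2% of all tested genes. At an unadjusted p under 0.05 there was then 1 member, Sdhb, which was higher, where 2.68% of all tested genes were higher at that threshold. Leaving out HSRA-C replicate 4 alone gave a median of 0.056, with 37 members higher and 4 at an unadjusted p under 0.05 (7.37% of all tested genes). Without HSRA-S replicate 2 there were 5 (9.52% of all tested genes). With the proximal tubule minus collecting duct difference as a covariate, the median was 0.052, 36 members were higher and 3 were at an unadjusted p under 0.05 (8.23% of all tested genes). With all 8 arrays and an intensity trend in limma 12 members were at that threshold (12.5% of all tested genes), with an unmoderated test 12 (10.4%), and with the dimmest 50% of genes left out 10 (14.6%). The member median was smaller than with all 8 arrays when either HSRA-C replicate 4 or both control arrays were left out, and with the covariate. It was not smaller without HSRA-C replicate 3 alone, at 0.093 with 41 members higher (0.087 with all 8 arrays).

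**Figure D2:**
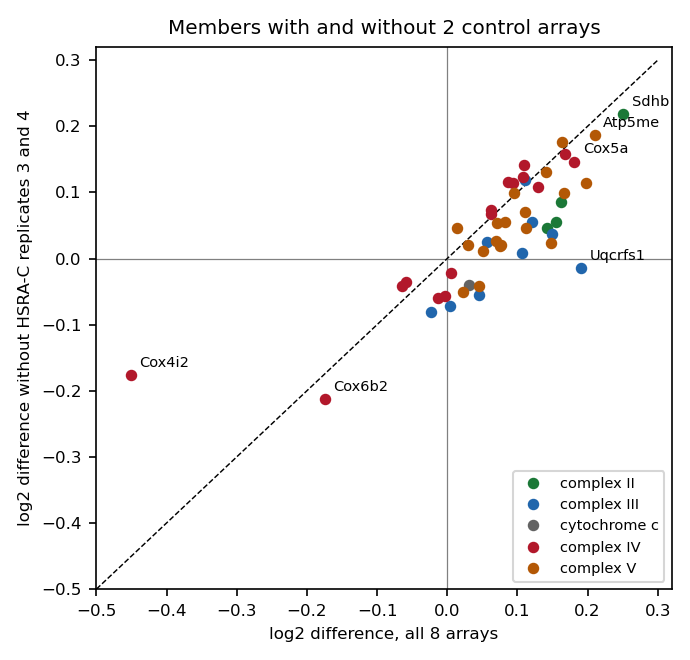
Log2 difference (HSRA-S minus HSRA-C) of each tested member from all 8 arrays (x axis) against the same difference without HSRA-C replicates 3 and 4 (y axis). Points on the dashed line are equal in both. Without those arrays Sdhb was at 0.22 and Uqcrfs1 at -0.014.

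Complex II had the highest median difference of the 4 complexes, at 0.16 (1.12-fold), and all 4 subunits had a higher mean in HSRA-S. The member with the smallest p of all was Sdhb (probe set 10873597), the iron-sulphur subunit that passes electrons from the flavin to ubiquinone. Its log2 level was 9.65, 9.65, 9.54 and 9.59 in HSRA-S, against 9.36, 9.43, 9.35 and 9.30 in HSRA-C. Every solitary kidney was above every control kidney, and the level averaged 9.61 ± 0.053 across the HSRA-S arrays, against 9.36 ± 0.052 across the HSRA-C arrays (SD, n = 4 each). That is 0.25 on the log2 scale (1.19-fold), for which the 95% interval ran 0.12 to 0.38 and the limma adjusted p was 0.331. Without HSRA-C replicates 3 and 4 it was 0.22.

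The groups overlapped in the other subunits of complex II. Sdha, the flavoprotein that oxidises succinate, was at log2 9.77, 9.70, 9.67 and 9.81 in HSRA-S, against 9.63, 9.74, 9.51 and 9.46 in HSRA-C. Sdhc, a membrane anchor that holds haem, was at 11.27, 11.25, 11.25 and 11.26 in HSRA-S, against 11.12, 11.31, 11.03 and 11.01 in HSRA-C. Sdhd, its partner in the membrane, was at 9.05, 9.27, 9.27 and 9.13 in HSRA-S, against 9.05, 9.14, 8.94 and 8.94 in HSRA-C. In all 3 genes HSRA-C replicate 2 reached into or above the HSRA-S range and HSRA-C replicates 3 and 4 were the lowest arrays. Differences were 0.16 for Sdha, 0.14 for Sdhc and 0.16 for Sdhd, with limma adjusted p-values of 0.432, 0.459 and 0.424. They became 0.056, 0.046 and 0.085 without HSRA-C replicates 3 and 4, where the complex median was 0.070. The mean over the 4 subunits was 9.93, 9.97, 9.93 and 9.95 in HSRA-S, against 9.79, 9.90, 9.71 and 9.68 in HSRA-C.

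**Figure D3:**
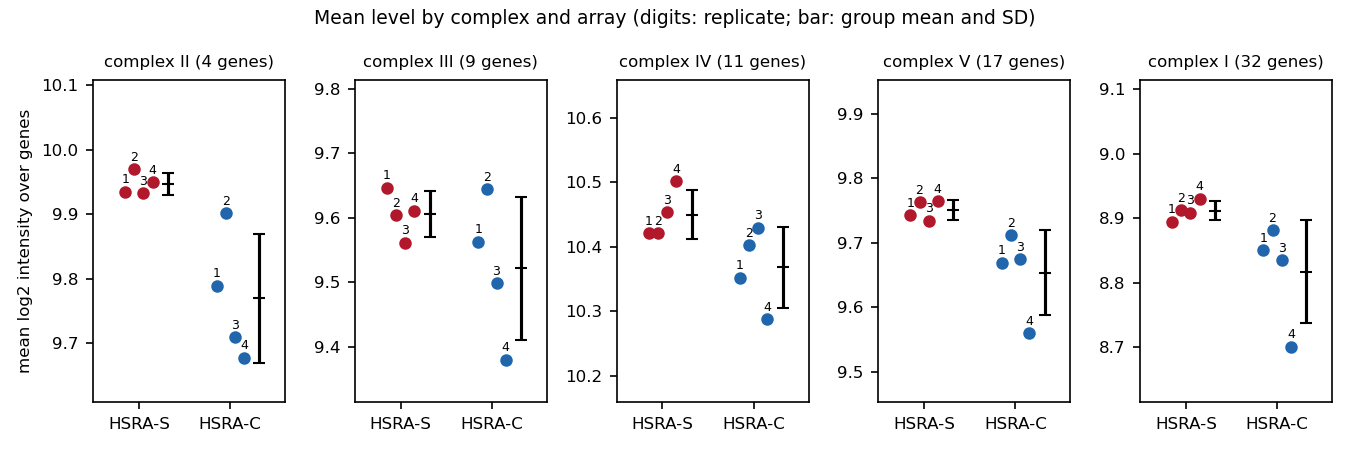
Mean log2 intensity over the genes of each complex, by array (points, with the replicate number), HSRA-S left and HSRA-C right in each panel, with the group mean and SD as a bar. Complexes IV and V are shown over their 11 and 17 bright genes and complex I over 32 listed genes, Ndufa4 among them, for reference. Every panel spans 0.5 log2 units, and HSRA-C replicate 4 is the lowest point in each.

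Sdhb and Cox5a, the members with the smallest p, are shown with the start of their genes, since nuclear respiratory factors are known to bind close to the start of many genes of the chain. The sequences are RefSeq promoters of assembly GRCr8, 250 bases before to 50 bases after the start. Sdhb lies at chr5:158547684-158547983 on the plus strand and Cox5a at chr8:66818034-66818333 on the plus strand. Capitals mark exact matches, on either strand, to GCATGCGC (the core bound by NRF1), CCGGAAG (the ETS site bound by GABPA), ATGGCGG (YY1) or TCAAGGTCA (ESRRA).

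Sdhb: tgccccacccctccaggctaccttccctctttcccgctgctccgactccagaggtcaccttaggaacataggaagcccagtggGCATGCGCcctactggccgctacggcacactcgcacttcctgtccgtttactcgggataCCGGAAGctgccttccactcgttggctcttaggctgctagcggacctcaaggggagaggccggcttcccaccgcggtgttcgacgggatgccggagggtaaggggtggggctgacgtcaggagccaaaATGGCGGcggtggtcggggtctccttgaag

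Cox5a: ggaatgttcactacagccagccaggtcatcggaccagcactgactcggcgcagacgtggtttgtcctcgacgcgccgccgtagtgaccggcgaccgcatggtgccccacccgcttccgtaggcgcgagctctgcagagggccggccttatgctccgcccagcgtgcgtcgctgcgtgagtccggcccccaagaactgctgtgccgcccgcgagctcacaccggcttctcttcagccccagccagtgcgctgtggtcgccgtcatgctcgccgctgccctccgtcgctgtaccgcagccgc

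The Sdhb window held 1 match each for NRF1, GABPA and YY1, which begin at positions -167, -108 and 21 from the start, and the Cox5a window held 0 of the 4 letter strings. Promoters were matched for 42 of 51 members. GCATGCGC was present in 8 of these 42 (19%), against 2.47% of all 33469 promoters in the table, and CCGGAAG in 14 (33.3%), against 8.75%. ATGGCGG was present in 5 (11.9%, against 4.8%) and TCAAGGTCA in 2 (4.76%, against 0.433%). Both members with TCAAGGTCA, Sdhd and Atp5mc3, are described with their values here. A match is a string of letters and was not tested for binding, base composition was not matched, and the 3 matches in Sdhb do not overlap. The strings were chosen after the sequences were seen. Members were counted with 1 promoter per symbol, while all promoters were counted as listed. The members with GCATGCGC include Cox8c, which the filter on dim genes left out.

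Complex III had a median difference of 0.11, with 8 of 9 genes higher in HSRA-S and 0 at an unadjusted p under 0.05. The smallest p belonged to Uqcrh, the hinge protein of the complex, with log2 levels of 10.15, 10.28, 10.20 and 10.26 in HSRA-S, against 10.06, 10.15, 10.17 and 10.06 in HSRA-C. Uqcrq, a small subunit near the bound quinone, was at 8.79, 8.78, 8.88 and 8.80 in HSRA-S, against 8.76, 8.75, 8.71 and 8.54 in HSRA-C, and was the 1 gene of this complex without overlap between groups. Uqcr10, another small membrane subunit, was at 8.24, 8.28, 8.23 and 8.24 in HSRA-S, against 8.19, 8.23, 8.13 and 7.84 in HSRA-C. The difference was 0.11 for Uqcrh, 0.12 for Uqcrq and 0.15 for Uqcr10, and the smallest limma adjusted p was 0.484. HSRA-C replicate 4 was the lowest array for 8 of the 9 genes, and without it the complex median was 0.062. With HSRA-C replicates 3 and 4 both left out it was 0.0087, with 5 genes higher.

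The core genes of complex III, chosen after values were seen, also overlapped between groups. Uqcrfs1, the Rieske iron-sulphur protein, was at log2 8.38, 8.01, 7.97 and 8.09 in HSRA-S, against 8.04, 8.21, 7.76 and 7.67 in HSRA-C. Its level in HSRA-S replicate 1 was the highest and that in HSRA-C replicate 4 the lowest. Its difference of 0.19 carried a 95% interval of -0.10 to 0.48, and it was -0.014 without HSRA-C replicates 3 and 4. Uqcrc2, a core protein of the matrix side, was at 0.11 with all 8 arrays and at 0.0087 without those arrays. Uqcrc1, the other core protein, was at 0.046 and -0.055, and Cyc1, the haem subunit that hands electrons to cytochrome c, at 0.0040 and -0.072. Uqcrb, a quinone-binding subunit, had 3 probe sets with differences of 0.057, 0.081 and 0.096. Uqcr11, a small subunit, had the lowest value of the complex at -0.024.

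Cytochrome c (Cycs), the soluble carrier between complexes III and IV, was at log2 11.06, 11.05, 11.13 and 11.03 in HSRA-S, against 11.06, 11.15, 10.99 and 10.93 in HSRA-C. HSRA-C replicate 2 was the highest array and HSRA-C replicate 4 the lowest, and the groups overlapped. Its difference was 0.030 (95% interval -0.11 to 0.17) on the brightest of 3 probe sets and 0.028 and 0.053 on the others. Its sign turned without HSRA-C replicates 3 and 4 (-0.041).

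Complex IV had the lowest median, 0.062 over 16 tested genes, with 10 higher and 6 lower in HSRA-S. This figure mixes the broadly used subunits with dim alternative forms known from particular tissues or cells. Over the 11 bright genes the median was 0.087 and 9 were higher. Of these 11, 4 (36.4%) lay above HSRA-C without overlap, against 4.12% of all tested genes and 5.91% of those at log2 7 or more. Without HSRA-C replicates 3 and 4 the median over all 16 was 0.071 and that over the bright ones 0.11, against 0.070 for complex II and 0.0087 for complex III. The difference between complexes was not tested. The median over all 16 was 0.034 without HSRA-C replicate 4 alone and 0.038 without HSRA-S replicate 4. With the tubule covariate the medians were 0.011 over all 16 and 0.074 over the bright ones.

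Among the broadly used subunits, Cox5a and Cox5b, the regulatory subunits on the matrix side, had the smallest p-values. Cox5a was at log2 10.70, 10.69, 10.76 and 10.67 in HSRA-S, against 10.47, 10.64, 10.51 and 10.46 in HSRA-C, a difference of 0.18 (1.13-fold, limma adjusted p 0.352). Its other probe set gave 0.21. Cox5b was at 8.49, 8.49, 8.49 and 8.58 in HSRA-S, against 8.37, 8.34, 8.46 and 8.21 in HSRA-C, a difference of 0.17 (limma adjusted p 0.380). In both genes all HSRA-S arrays were above all HSRA-C arrays. Without HSRA-C replicates 3 and 4 Cox5a was at 0.15 and Cox5b at 0.16.

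Cox7a2, the broad form of subunit VIIa, and Cox4i1, the broad form of subunit IV, made up the other non-overlapping pair. Cox7a2 was at log2 10.78, 10.75, 10.82 and 10.88 in HSRA-S, against 10.68, 10.72, 10.72 and 10.59 in HSRA-C, a difference of 0.13 with a limma adjusted p of 0.421. Another bright probe set gave 0.14. A dim one, at a mean of log2 4.14 in HSRA-S against 4.22 in HSRA-C, gave -0.083. Cox4i1 was at 9.97, 9.90, 9.89 and 9.995 in HSRA-S, against 9.82, 9.81, 9.87 and 9.83 in HSRA-C. All HSRA-S arrays were above all HSRA-C arrays, among which HSRA-C replicate 3 was the highest. Its difference was 0.11 (limma adjusted p 0.455), and 0.12 without HSRA-C replicates 3 and 4.

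Other bright subunits of complex IV had small values. Cox7c was at 0.11, Cox8a at 0.087, and Cox6c and Cox6a1 at 0.062 each. Cox6b1, which faces the intermembrane space and helps the complex to dimerise, was at -0.014 (95% interval -0.15 to 0.13), and its 4 HSRA-S arrays had an SD of 0.0096. Cox7b was at 0.0049 on its bright probe set and 0.24 on a dim probe set at log2 3.36 in HSRA-S against 3.12 in HSRA-C. Cox7a2l, which joins complexes III and IV into supercomplexes, was at -0.0034, and turned to 0.0027 with arrays centred on their median. Each of these intervals reached from below 0 to above 0.

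The alternative forms known from particular tissues or cells were dim, and all 4 tested ones had a lower mean in HSRA-S. Cox4i2, the alternative subunit IV known from lung and from oxygen-sensing cells, had the widest difference of all members. Its log2 level was 4.17, 4.59, 5.21 and 4.21 in HSRA-S, against 4.55, 4.89, 5.48 and 5.06 in HSRA-C. HSRA-S replicate 3 was well above the other HSRA-S arrays, HSRA-C replicate 3 was the highest of all, and the groups overlapped. It differed by -0.45, where the 95% interval ran -0.998 to 0.097, at a limma adjusted p of 0.485, and it was -0.18 without HSRA-C replicates 3 and 4. Cox6b2, a testis form, averaged log2 5.35 ± 0.296 across the HSRA-S arrays, against 5.52 ± 0.111 across the HSRA-C arrays (SD, n = 4 each), a difference of -0.17. Cox6a2 and Cox8b, the heart and muscle forms, were at -0.059 and -0.065. The striated muscle list, with 7 of 12 genes tested, had means of 4.18 to 4.31 over the HSRA-S arrays, against 4.18 to 4.30 over the HSRA-C arrays. Cox8c, a testis form below the filter, averaged 3.54 ± 0.199 across the HSRA-S arrays, against 3.54 ± 0.192 across the HSRA-C arrays. The pseudogene Cox6c-ps1, at a log2 mean of 3.84, had a difference of 0.094. The forms Cox7a1 and Cox7b2 were not analysed here.

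**Figure D4:**
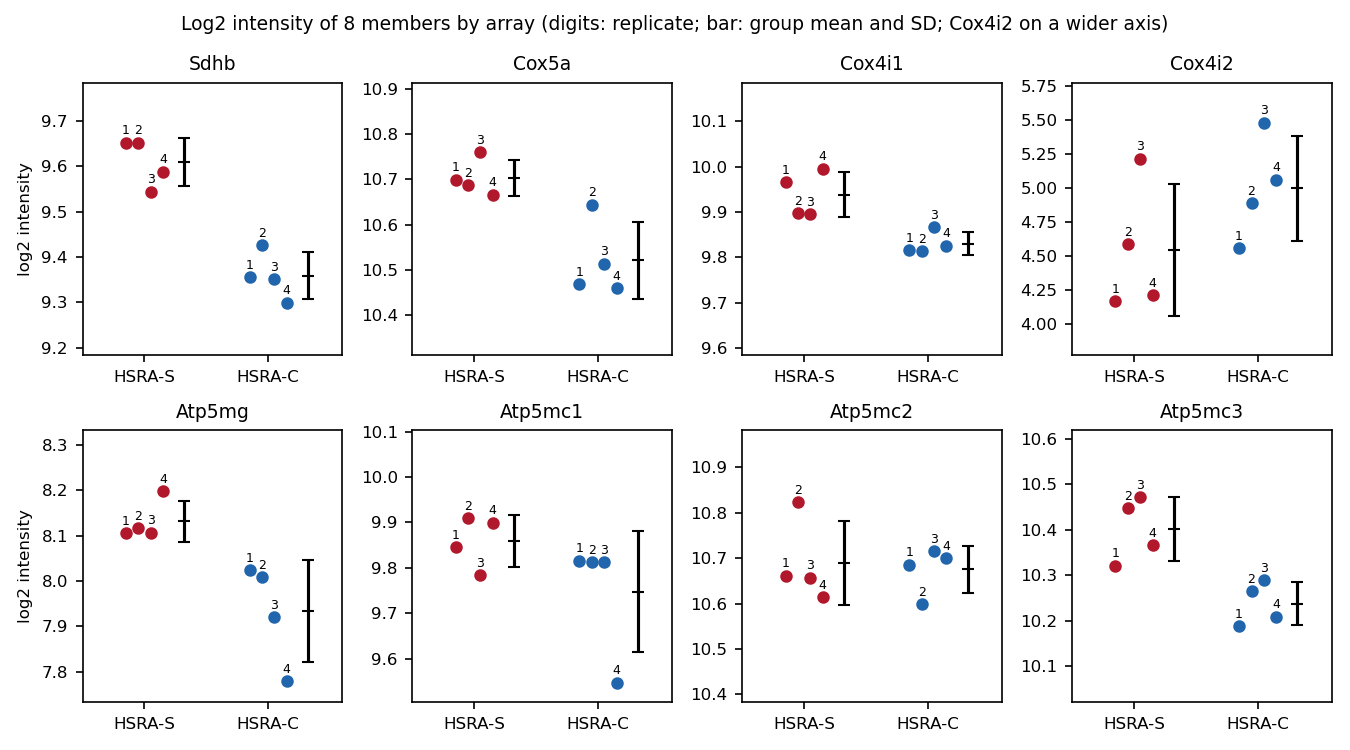
Log2 intensity of 8 members by array (points, with the replicate number), HSRA-S left and HSRA-C right, with the group mean and SD as a bar. Each panel spans 0.6 log2 units except that of Cox4i2, which spans 2. The groups do not overlap for Sdhb, Cox5a, Cox4i1, Atp5mg and Atp5mc3, and they overlap for Cox4i2, Atp5mc1 and Atp5mc2.

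All 19 tested genes of complex V had a higher mean in HSRA-S, with a median of 0.082, and 5 of them (26.3%) were higher at an unadjusted p under 0.05, against 7.36% of all tested genes. The complex median was 0.051 without HSRA-C replicate 4 alone. With HSRA-C replicates 3 and 4 both left out there were 17 of 19 higher and a median of 0.046. At that threshold there were then 0, against 4.85% of all tested genes in either direction. The 5 genes from all 8 arrays were Atp5mg, Atp5me, Atp5mc3, Atp5pb and Atp5if1. Atp5mg and Atp5me, the membrane subunits g and e that link ATP synthases into dimers, had the widest differences. Atp5mg was at log2 8.11, 8.12, 8.11 and 8.199 in HSRA-S, against 8.02, 8.01, 7.92 and 7.78 in HSRA-C, a difference of 0.20 (1.15-fold, limma adjusted p 0.352). Atp5me was at 7.20, 7.25, 7.14 and 7.05 in HSRA-S, against 6.93, 7.02, 7.05 and 6.80 in HSRA-C, a difference of 0.21 (1.16-fold, limma adjusted p 0.358). The groups did not overlap for Atp5mg, while for Atp5me HSRA-C replicate 3 just exceeded HSRA-S replicate 4. The values without HSRA-C replicates 3 and 4 were 0.11 for Atp5mg and 0.19 for Atp5me.

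The c subunits of the rotating ring come from 3 genes that are known to encode the same mature protein with different import sequences. Atp5mc3 was at log2 10.32, 10.45, 10.47 and 10.37 in HSRA-S, against 10.19, 10.26, 10.29 and 10.21 in HSRA-C. Atp5mc1 was at 9.85, 9.91, 9.78 and 9.90 in HSRA-S, against 9.82, 9.81, 9.81 and 9.55 in HSRA-C. Atp5mc2 was at 10.66, 10.82, 10.66 and 10.61 in HSRA-S, against 10.69, 10.60, 10.72 and 10.70 in HSRA-C. All HSRA-S arrays were above all HSRA-C arrays for Atp5mc3, whereas for Atp5mc1 HSRA-C replicate 4 was far below the rest and for Atp5mc2 the groups lay on top of each other. The differences were 0.16 (SE 0.060) for Atp5mc3, 0.11 (SE 0.075) for Atp5mc1 and 0.014 (SE 0.065) for Atp5mc2. The difference between these genes was not tested. They were 0.18, 0.046 and 0.046 without HSRA-C replicates 3 and 4.

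In the peripheral stalk, which keeps the catalytic head from turning, Atp5pb was at log2 9.54, 9.52, 9.47 and 9.53 in HSRA-S, against 9.34, 9.48, 9.29 and 9.28 in HSRA-C, a difference of 0.17 with a limma adjusted p of 0.369. HSRA-C replicate 2 overlapped the HSRA-S arrays. The other stalk genes Atp5pd, Atp5pf and Atp5po were at 0.095, 0.077 and 0.071. Atp5if1, the inhibitor that stops the enzyme from consuming ATP when respiration fails, was at 9.83, 9.82, 9.74 and 9.87 in HSRA-S, against 9.74, 9.63, 9.73 and 9.60 in HSRA-C. Its lowest HSRA-S array was just above its highest HSRA-C array, and its difference was 0.14 with a limma adjusted p of 0.404.

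The F1 part, the catalytic head with its central stalk, was set apart after the values were seen. It had a median of 0.052 over its 5 genes and 0 of 5 at an unadjusted p under 0.05. Over the 11 remaining bright genes of the complex, the inhibitor aside, the median was 0.095 with 4 (36.4%) higher at that threshold. Over all tested genes 7.36% were higher at it, and 9.61% of those at log2 7 or more. The gamma subunit Atp5f1c, which turns inside the head, was at log2 7.56, 7.53, 7.49 and 7.57 in HSRA-S, against 7.46, 7.47, 7.41 and 7.36 in HSRA-C, without overlap between groups and with a difference of 0.11. The catalytic beta subunit Atp5f1b was at 0.022, the alpha subunit Atp5f1a at 0.075, delta (Atp5f1d) at 0.030 and epsilon (Atp5f1e) at 0.052. The F1 part and the rest were not tested against each other. The small membrane subunits Atp5mf and Atp5mk were at 0.046 and 0.069. The dim copies Atp5mgl4 and Atp5mc1l2, at log2 means of 3.85 and 3.96, were at 0.15 and 0.082, and Atp5mgl3, below the filter, averaged 3.22 ± 0.102 across the HSRA-S arrays, against 3.22 ± 0.120 across the HSRA-C arrays (SD, n = 4 each).

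**Figure D5:**
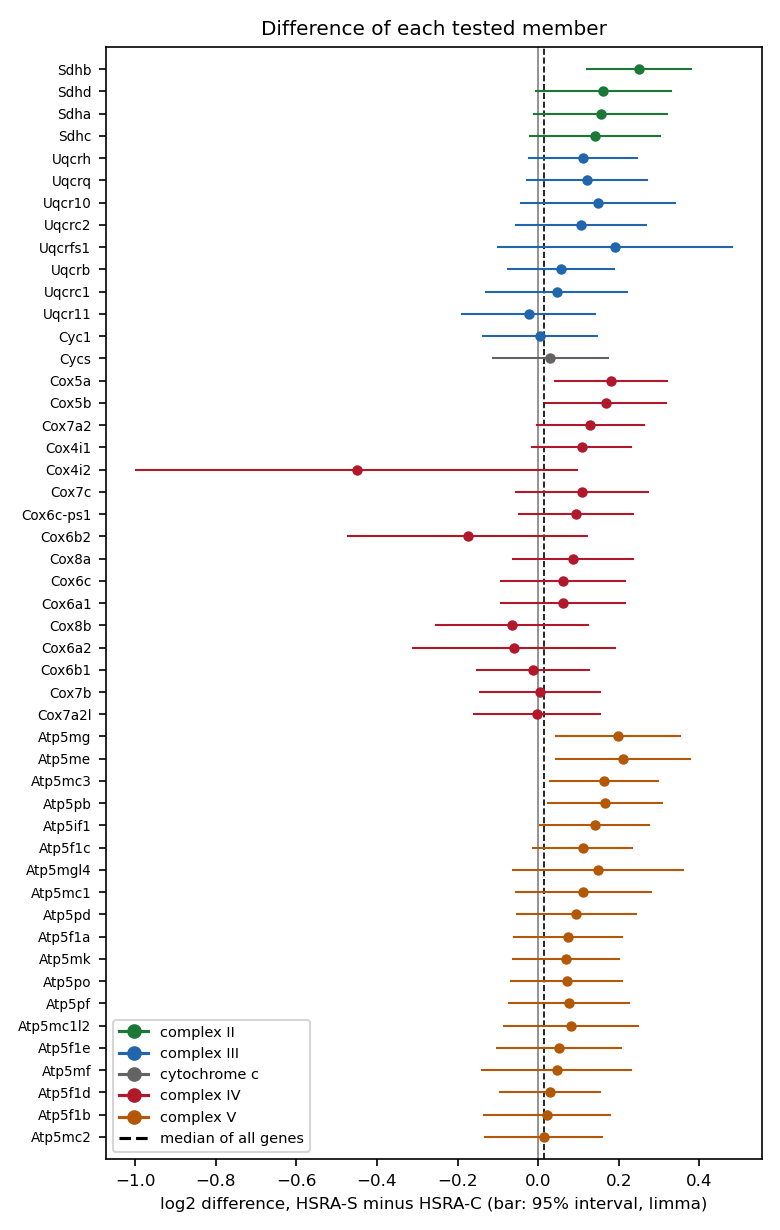
Log2 difference (HSRA-S minus HSRA-C) of each of the 49 tested members with its 95% interval from limma, coloured by complex and ordered by p within a complex. The dashed line marks the median of all tested genes at 0.015. All complex V points lie right of 0, and the widest interval belongs to Cox4i2.

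Many of these genes have near-identical copies in the genome, and the signal of a gene and of such a copy cannot be told apart here. RefSeq holds 124 genes whose symbols match the rule, of which 59 are pseudogenes, and 23 of the 51 members have a pseudogene under their own symbol. Of the 51 members, 8 had more than 1 probe set. Within each of these genes the probe sets gave differences of the same sign, apart from the dim one of Cox7a2, and 4 probe sets shared between a member and another gene were not used.

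The other parts of the respiratory machinery had values of similar size. Complex I subunits, the entry point for electrons from NADH, had 30 of 32 tested genes higher in HSRA-S, a median of 0.068 and 3 genes higher at an unadjusted p under 0.05 (9.38%, against 7.36% of all tested genes and 9.61% of those at log2 7 or more). Leaving out HSRA-C replicates 3 and 4 gave 22 of 32 higher and a median of 0.038. At that threshold there was then 1 of these genes, against 4.85% of all tested genes. They also shared the low control array, with HSRA-C replicate 4 the lowest of the 8 in 24 of 32. The 32 genes include Ndufa4, which was named for complex I but is now counted as a subunit of complex IV. Ndufa1, a small membrane subunit, had the smallest p among them at a difference of 0.35 (SE 0.099, limma adjusted p 0.331). Mitochondrial ribosomal proteins, a list added after the values were seen, had 51 of 64 genes higher and a median of 0.074, with 15 higher and 1 lower at that threshold, against 7.36% and 4.69% of all tested genes. With those arrays left out there were 46 of 64 higher and a median of 0.048. At that threshold there were then 4 in either direction, against 4.85% of all tested genes. The median of complexes II to V was not tested against either.

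Assembly factors insert cofactors and join subunits. All 18 tested genes of complex IV assembly had a difference at or above 0 (median 0.069), with 2 (11.1%) higher at an unadjusted p under 0.05, against 7.36% of all tested genes. Leaving out HSRA-C replicates 3 and 4 gave 12 of 18 higher and a median of 0.022. At that threshold there was then 1 of these genes, against 4.85% of all tested genes. Lrpprc, which stabilises mitochondrial messenger RNAs, was at log2 7.44, 7.42, 7.36 and 7.46 in HSRA-S, against 7.18, 7.26, 7.02 and 7.10 in HSRA-C, a difference of 0.28 without overlap (limma adjusted p 0.331). Taco1, a translation activator for a catalytic subunit of complex IV, was at 0.14. For complex III, 5 of 6 assembly genes were higher (median 0.099), with Uqcc3 at 0.14 as the 1 gene at that threshold. For complex V it was 5 of 5 (median 0.059), with Tmem70, which helps to build the c ring, at 0.19. For complex II it was 2 of 3, with Sdhaf1, an iron-sulphur insertion factor, at 0.18.

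Regulators of mitochondrial gene expression were split between the directions. Of 14 tested genes, 8 were higher and 6 lower, with a median of 0.037, and 3 (21.4%) were higher at an unadjusted p under 0.05, against 7.36% of all tested genes. Ppargc1a, the coactivator that drives mitochondrial biogenesis, was at log2 9.61, 9.70, 9.65 and 9.38 in HSRA-S, against 9.48, 9.59, 9.49 and 9.50 in HSRA-C. The groups overlapped, with HSRA-S replicate 4 the lowest array, and the difference was 0.072 (SE 0.076, limma adjusted p 0.738). Yy1 was at 0.18 without overlap (limma adjusted p 0.375), and Ppara, the fatty acid sensor of the tubule, at 0.36, which became 0.15 without HSRA-C replicates 3 and 4.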

How the data were processed

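Whole-kidney RNA of 8 rats was hybridised to Rat Gene 1.1 ST arrays, 1 per sample. The authors deposited RMA summaries per the submitters' processing notes, on a linear intensity scale from 2.12 to 9259. No label gives the software or its version. RMA equalises probe distributions and compresses dim values. Log2 of the deposited intensity was taken before every step.

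Of 29214 probe sets, 18644 had exactly 1 symbol, in the platform annotation. Per gene the brightest probe set was kept (17245 genes), and the dimmest 20% of genes were left out (log2 mean under 3.63). HSRA-S was compared with HSRA-C in limma 3.58.1 (R 4.3.3; lmFit, eBayes, group only), with Benjamini-Hochberg adjustment over 13796 genes at 0.05. Steps were tested on simulated data.

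Members, lists and alternatives were chosen with earlier results of these data known. Members named in full were the 4 of smallest p and the lowest per complex, Cycs and isoforms. Of other genes, up to 2 per list of smallest p, Ppargc1a, Slc14a2 and Aqp4 were named. Remaining members, and the promoter motifs, were chosen after values and sequences were seen. The main fit did not pair samples by replicate number. Lists got no test. The values carry no genome build. The number of arrays limits precision.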

Additional observations from a re-analysis of the deposited data

Results flagged for a closer look

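An array far from the others of its group was found in 6 of 108 groups of 4 values, where chance gives about 1 in 20. HSRA-C replicate 4 accounted for 3 of them. Atp5mc1 was at log2 9.55 there, while the other HSRA-C arrays lay at 9.81 to 9.82. Uqcr11 was at 10.98 in HSRA-C replicate 4 and at 11.18 to 11.20 in the others. Cox7b was at 10.47 in it and at 10.59 to 10.61 in the others, and Cox7b was also low in HSRA-S replicate 2, at 10.43 against 10.61 to 10.63. HSRA-S replicate 4 was high for 2 genes, with Atp5mg at 8.199 against 8.11 to 8.12 in the other HSRA-S arrays and Cox5b at 8.58 against at most 8.49.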

How the results depend on the processing

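In all 17 alternatives 0 members passed the adjusted threshold, and the member median stayed above 0. Over all genes 1 gene passed, Hoxb5, which is no member, both with the dimmest 50% left out and with an intensity trend. Members at an unadjusted p under 0.05 numbered 1 without HSRA-C replicates 3 and 4, 3 with the tubule covariate, and 4 to 11 when 1 array was left out (4 without HSRA-C replicate 4, 5 without HSRA-S replicate 2). They numbered 12 with an intensity trend (12.5% of all tested genes), 12 with an unmoderated test (10.4%) and 10 with the dimmest 50% left out (14.6%). All genes at that threshold numbered 669 without HSRA-C replicates 3 and 4 and 1010 to 1942 when 1 array was left out. The lowest counts came from leaving out HSRA-C replicate 3 (1010) or replicate 4 (1017). Medians without HSRA-C replicates 3 and 4 were 0.070 for complex II and 0.0087 for complex III, and that of complex IV was 0.011 with the covariate. The causes were not tested.

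Leaving out 1 array moved the member median between 0.056 and 0.10 and turned the sign of 8 named members near 0. Their ranges were -0.077 to 0.014 for Uqcr11, -0.0030 to 0.069 for Cycs, -0.12 to 0.037 for Cox6a2, -0.054 to 0.022 for Cox6b1, -0.032 to 0.045 for Cox7a2l, -0.027 to 0.052 for Cox7b, -0.11 to 0.013 for Cox8b and -0.031 to 0.039 for Atp5mc2. Without HSRA-C replicates 3 and 4 Cycs was at -0.041 and Cox7b at -0.023, and with the covariate they were at -0.010 and -0.039. Cox7a2l was at 0.0027 with arrays centred on their median. The other 21 of 29 tested named members kept their sign in every alternative run, and 0 of 489 values passed the adjusted threshold (smallest limma adjusted p 0.183).

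Same-numbered samples of the groups had deviations that correlated at -0.068, 0.07, 0.129 and -0.11. Differently numbered samples were not compared, so these values cannot decide whether the numbers pair samples. With the replicate number as a block, 7 members were at an unadjusted p under 0.05 (11.5% of all tested genes) and 0 passed the adjusted threshold.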

Other observations

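Genes that supply the chain with haem and quinone were also examined. Of 14 tested, 11 had a higher mean in HSRA-S, with a median log2 difference of 0.070, and 3 (21.4%) were higher at an unadjusted p under 0.05, against 7.36% of all tested genes. Hccs, the lyase that attaches haem to cytochrome c, was at log2 7.73, 7.67, 7.82 and 7.77 in HSRA-S, against 7.58, 7.61, 7.38 and 7.30 in HSRA-C. The groups did not overlap, and the difference was 0.28 (SE 0.081, limma adjusted p 0.331), or 0.15 without HSRA-C replicates 3 and 4. Coq5, a methyltransferase of ubiquinone synthesis, was at 0.21, without overlap. Leaving out HSRA-C replicates 3 and 4 gave 7 of 14 higher and a median of 0.0037. At an unadjusted p under 0.05 there were then 0, against 4.85% of all tested genes.

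A list of outer membrane pores, phosphate and nucleotide carriers, the mitochondrial creatine kinase Ckmt1 and the citrate cycle enzyme Cs had 6 of 7 tested genes higher and a median of 0.084. At an unadjusted p under 0.05 there were 2, both higher, against 7.36% of all tested genes. Without HSRA-C replicates 3 and 4 the list had 0, against 4.85% of all tested genes in either direction. Slc25a4, an ADP/ATP translocase, was at 9.21, 9.26, 9.08 and 9.10 in HSRA-S, against 8.93, 9.11, 8.98 and 8.86 in HSRA-C, a difference of 0.19 with overlapping groups. Vdac2, a pore of the outer membrane, was at 9.40, 9.32, 9.31 and 9.31 in HSRA-S, against 9.23, 9.21, 9.21 and 9.18 in HSRA-C, a difference of 0.13 without overlap (limma adjusted p 0.390). No gene of these lists passed the adjusted threshold, 0 of 14 and 0 of 7.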
